A study of Homo sapiens with 7 samples.

Results

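Axon guidance genes were examined in human dermal fibroblasts that expressed progerin or additional prelamin A. The set held genes whose platform symbol was a semaphorin (SEMA), plexin (PLXNA to PLXND), neuropilin (NRP), ephrin (EFNA, EFNB), Eph receptor (EPHA, EPHB), SLIT, ROBO, netrin (NTN) or UNC5 symbol. Only probe sets that the annotation tied to a single gene were used, so a family member without such a probe set is not in the set. The array carried such probe sets for 67 of these genes. Of the 67, 46 reached a signal of 100 on 1 or more of the 7 arrays, among the 12726 genes tested in all. The signal is the fluorescence intensity of a probe set on a linear scale, as the array software summarised it. Expression was measured once for each of 5 cell populations and in 2 controls, each on its own array. The controls were labelled only as fibroblast controls, and the labels did not say whether they carried a vector or came from separate cultures. The other arrays held cells overexpressing progerin, the same with FTI, cells overexpressing prelamin A, the same with FTI, and cells overexpressing prelamin A and ZMPSTE24. FTI was L-744832, a farnesyltransferase inhibitor, given at 10 nM for 48 h, and RNA came from passage 10 of a diploid fibroblast line in all 7 cases. The labels name a single fibroblast strain, whereas the methods describe a pair of lines, each grown in duplicate, and neither says how these relate to the arrays. According to the methods, the lamins were delivered by lentivirus from a CMV promoter, so that expression was not under the control of the LMNA gene. The title of the array of prelamin A cells with FTI left prelamin A out, while its source and treatment labels gave both, and the array was used under those 2 labels.

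Prelamin A is the farnesylated precursor of lamin A, a protein of the nuclear lamina, and ZMPSTE24 is the protease that removes its farnesylated end. Progerin is the shortened, permanently farnesylated form found in Hutchinson-Gilford progeria. Guidance molecules were named for steering growing axons, but fibroblasts, blood vessels and epithelia use them as well. Secreted or membrane-bound semaphorins bind plexins, with neuropilins as co-receptors for the secreted class 3 members. Ephrins are anchored to the cell surface and signal by contact with Eph receptor tyrosine kinases, SLIT proteins bind ROBO receptors, and netrins bind DCC, neogenin and UNC5 receptors. Most of these receptors act on the cytoskeleton through small GTPases.

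Promoter sequences are shown first for 5 genes on which the results below turn: SEMA6D and EPHB1, called higher with both lamins, and SEMA3C, SLIT2 and NTN4, called higher with ZMPSTE24 than without it in cells with prelamin A. Each run holds the 250 bases before the annotated start in RefSeq (GRCh38.p14), read 5′ to 3′ on the strand of the gene, and 39 of the 46 genes tested had an entry in the promoter table. Capitals mark matches, on either strand, to 6 motifs: the TATA box (letters TATAAA), the CCAAT box (those letters themselves), the GC box (letters GGGCGG), the E-box (letters CACGTG), the AP-1 site (letters TGACTCA) and the core of the forkhead site (letters TGTTTAC).
SEMA6D, chr15:47183839-47184088, plus strand: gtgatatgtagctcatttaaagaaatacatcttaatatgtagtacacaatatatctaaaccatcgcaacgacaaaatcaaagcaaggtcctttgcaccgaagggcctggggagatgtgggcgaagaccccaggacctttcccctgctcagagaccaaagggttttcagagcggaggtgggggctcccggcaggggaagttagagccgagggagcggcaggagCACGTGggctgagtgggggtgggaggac
EPHB1, chr3:134795010-134795259, plus strand: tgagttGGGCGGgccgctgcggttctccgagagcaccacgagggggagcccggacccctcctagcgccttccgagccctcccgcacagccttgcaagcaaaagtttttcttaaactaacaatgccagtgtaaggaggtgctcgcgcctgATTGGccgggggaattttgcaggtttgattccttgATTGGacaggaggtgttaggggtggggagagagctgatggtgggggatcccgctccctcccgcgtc
SEMA3C, chr7:80922390-80922639, minus strand: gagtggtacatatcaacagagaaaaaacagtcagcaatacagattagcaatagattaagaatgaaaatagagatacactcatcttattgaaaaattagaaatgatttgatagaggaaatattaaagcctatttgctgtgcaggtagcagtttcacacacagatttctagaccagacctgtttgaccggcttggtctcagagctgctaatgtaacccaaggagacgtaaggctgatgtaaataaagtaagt
SLIT2, chr4:20251655-20251904, plus strand: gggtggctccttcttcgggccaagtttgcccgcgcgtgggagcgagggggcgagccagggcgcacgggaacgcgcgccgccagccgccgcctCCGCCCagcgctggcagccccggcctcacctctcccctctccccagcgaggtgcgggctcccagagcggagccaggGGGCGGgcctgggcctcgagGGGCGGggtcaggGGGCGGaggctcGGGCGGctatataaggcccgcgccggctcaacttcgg
NTN4, chr12:95791156-95791405, minus strand: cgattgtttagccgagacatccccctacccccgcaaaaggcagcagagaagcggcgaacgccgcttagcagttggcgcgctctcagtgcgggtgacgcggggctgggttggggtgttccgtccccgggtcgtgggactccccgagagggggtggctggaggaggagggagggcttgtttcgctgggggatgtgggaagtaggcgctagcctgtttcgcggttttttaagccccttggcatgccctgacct
The SEMA6D window held 1 E-box, 28 bases before the start, a motif found in 6.34% of the 35116 promoters of the table. EPHB1 had 2 CCAAT boxes and 1 GC box, which 32.0% and 42.6% of all promoters also hold. SLIT2 had 5 GC boxes in a window of 77.2% GC, whereas the SEMA3C window had 36.4% GC and none of the 6 motifs. NTN4 had none of them either, with 64.4% GC, and the median over all promoters was 58.0%. These are matches of letters in a fixed window, not measured binding.

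Of the 67 genes, 13 of 20 semaphorins, 8 of 9 plexins, both neuropilins (2 of 2), 5 of 8 ephrins, 8 of 13 Eph receptors, 3 of 3 SLIT genes, 4 of 4 ROBO genes, 2 of 4 netrins and 1 of 4 UNC5 receptors passed the filter. A gene that passed only through the arrays where it was bright could hardly fail to differ there, so the counts below describe the genes tested and not the family as a whole. Of the guidance genes called higher below, SEMA6D, EPHB1, PLXNB1, EPHA5 and SEMA6B had both controls under 100. They passed only through arrays with progerin or prelamin A, and SEMA5B, called lower, passed only through a control. Of the further genes and markers named below as called higher, CD72, SLITRK5, TEK, INA, NEFL, NEFM and SNAP25 also passed only through arrays with progerin or prelamin A. The 21 genes left out were SEMA3B, SEMA3D, SEMA3E, SEMA3G, SEMA4A, SEMA4D, SEMA6C, PLXNA4, EFNA1, EFNA2, EFNB1, EPHA1, EPHA3, EPHA6, EPHA7, EPHA10, NTN3, NTN5, UNC5A, UNC5C and UNC5D, and the highest signal of any of them on any array was 87.4. Just inside the filter lay ROBO4, EPHB6, SEMA6A and SEMA5B, with highest signals of 101, 105, 111 and 113. Just outside it lay SEMA4A, EFNB1, PLXNA4 and EPHA1, with 87.4, 78.7, 72.7 and 72.4. All 8 markers of dermal fibroblasts (COL1A1, COL1A2, COL3A1, DCN, LUM, PDGFRB, THY1 and VIM) were tested, with a summed signal between 208951 and 256811 on the 7 arrays, and none was called in either lamin line.

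The comparisons rest on few arrays, and the 2 controls were not alike. Between them 9 of the 46 genes (19.6%) differed more than 2-fold, 4 higher and 5 lower in control 2, against 9.28% of all genes tested (4.31% higher and 4.97% lower). The widest gaps, as differences of log2(signal + 16) between control 2 and control 1, were -2.61 for ROBO2, 2.22 for EFNB3, -2.05 for NTN4, -1.90 for EPHA8, 1.87 for PLXNB1 and -1.81 for SEMA3A. Each comparison below used limma, with a call at a fold over 2 and an unadjusted p under 0.05, and the spread came from those 2 controls and from the variances of all genes. Log2 differences are on the log2(signal + 16) scale, which understates changes of dim genes. No guidance gene reached an adjusted p under 0.05 in any of these comparisons of single arrays, so every call below is one at an unadjusted p. An unadjusted p under 0.05 alone was reached by 5 guidance genes with progerin, 9 with prelamin A, 1 and 2 with FTI in those cells and 7 with ZMPSTE24, where 6.76%, 11.8%, 1.45%, 2.84% and 5.1% of all genes reached it. ZMPSTE24 and prelamin A did not show as raised signals on the arrays labelled for them, and progerin did in part: ZMPSTE24 read 5779 on the array labelled prelamin A and ZMPSTE24, 6120 on that of prelamin A alone and 4841 to 5195 on the other 5, and the LMNA probe set of highest mean signal read 8498 to 9814 on the 3 arrays labelled prelamin A, 15240 and 16289 on the 2 labelled progerin and 9300 and 14029 in the controls. No source used here says whether these probe sets lie within the delivered coding sequences, so the labels could not be checked in this way, and conditions are named below as the arrays were labelled. A level measured in bulk RNA does not separate a change per cell from a change in the share of cells that express the gene.

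**Figure D1:**
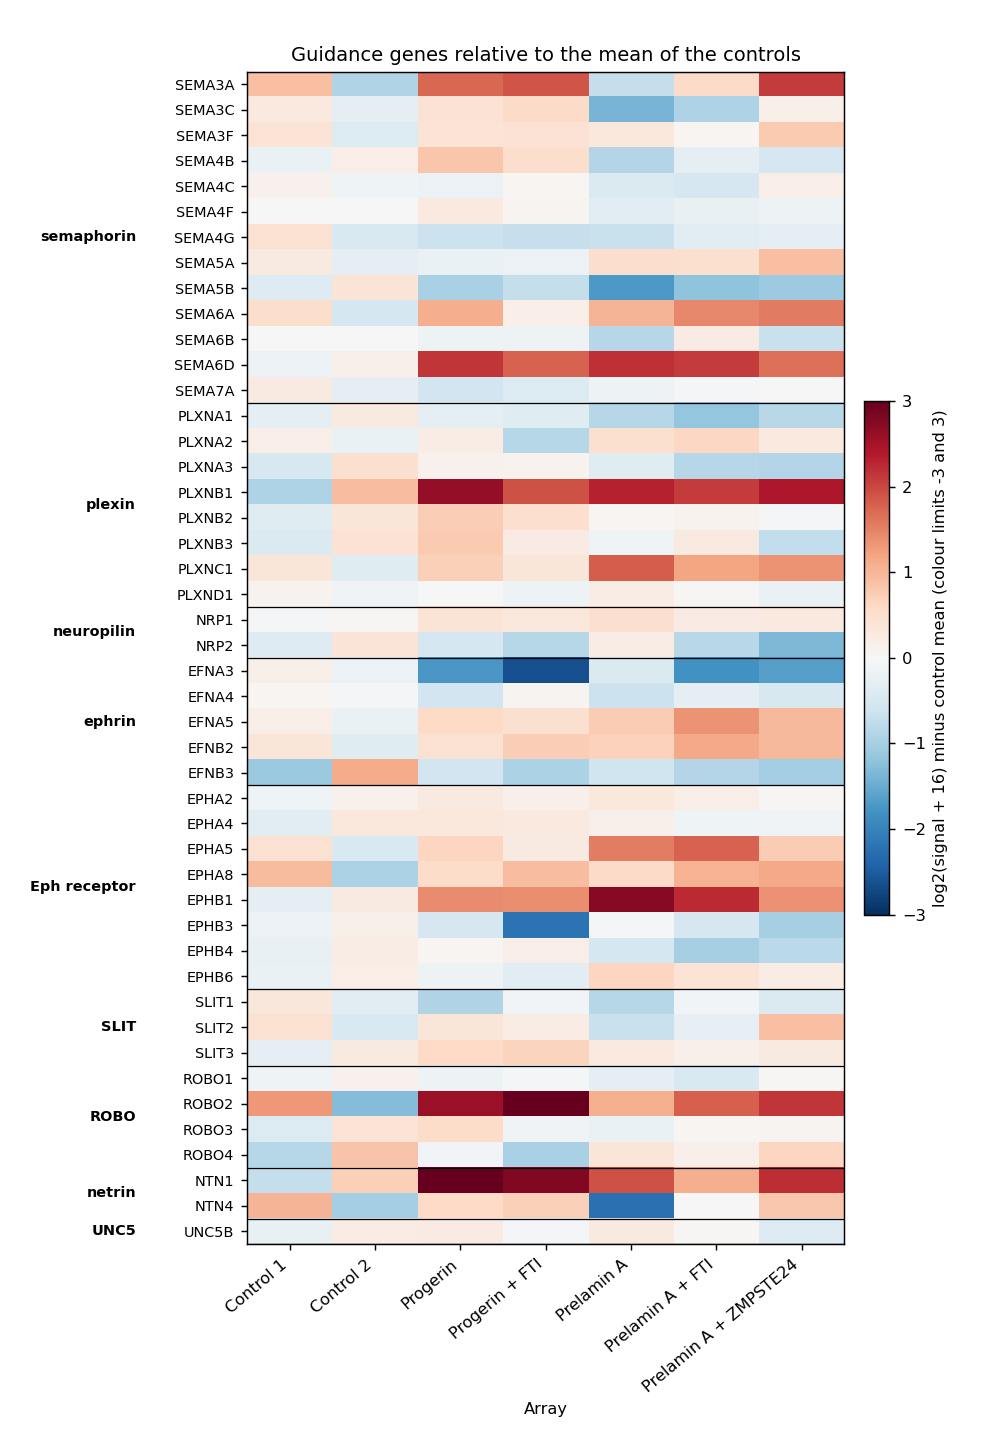
Heat map of the 46 guidance genes tested (rows, grouped by family) on the 7 arrays (columns), with colour for the difference of log2(signal + 16) from the mean of the 2 controls. SEMA6D, NTN1, PLXNB1 and EPHB1 are above both controls on all 5 arrays with progerin or prelamin A, EFNA3 and SEMA5B are below, and the 2 control columns differ from each other in genes such as ROBO2 and NTN4.

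Against the controls, 5 guidance genes were called with progerin, 4 higher (NTN1, PLXNB1, SEMA6D and EPHB1) and 1 lower (EFNA3). That was 10.9% of the 46, where 5.8% of all genes were called (3.76% higher, 2.04% lower), and the difference between these shares was not tested. With prelamin A, 8 were called, 6 higher (EPHB1, PLXNB1, SEMA6D, NTN1, PLXNC1 and EPHA5) and 2 lower (SEMA5B and SEMA3C), or 17.4% against a background of 10.3% (6.29% higher, 4.02% lower). The median log2 difference over the 46 genes was 0.30 with progerin and 0.10 with prelamin A, beside 0.01 and -0.02 over all genes. The 2 comparisons share both control arrays. Measured against 1 control at a time with no test, 11 and 14 genes differed more than 2-fold with progerin, and 14 and 16 with prelamin A, where 10.7% and 10.1% of all genes did so with progerin and 13.7% and 17.2% with prelamin A.

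Of the 46 genes, 8 had all 5 arrays with progerin or prelamin A above both controls: SEMA6D, NTN1, PLXNB1, PLXNC1, NRP1, EPHB1, EFNB2 and EFNA5. Another 2, EFNA3 and SEMA5B, had all of them below, and the other 36 overlapped. Over all genes these positions were taken by 11.9% (above) and 12.3% (below), beside 17.4% and 4.35% of the guidance genes. With control 1 left out, 26 genes had the 5 arrays on 1 side of control 2, and with control 2 left out, 20 did so relative to control 1, as did 51.8% and 45.3% of all genes. All these positions are those of the probe set tested. PLXNC1, NRP1, EPHB1 and EFNB2 each had another probe set that passed the filter and overlapped the controls. That of EPHB1 read 47.6 with progerin beside 26.9 and 77.5 in the controls, and that of EFNB2 read 1773 beside 1786 and 923.

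**Figure D2:**
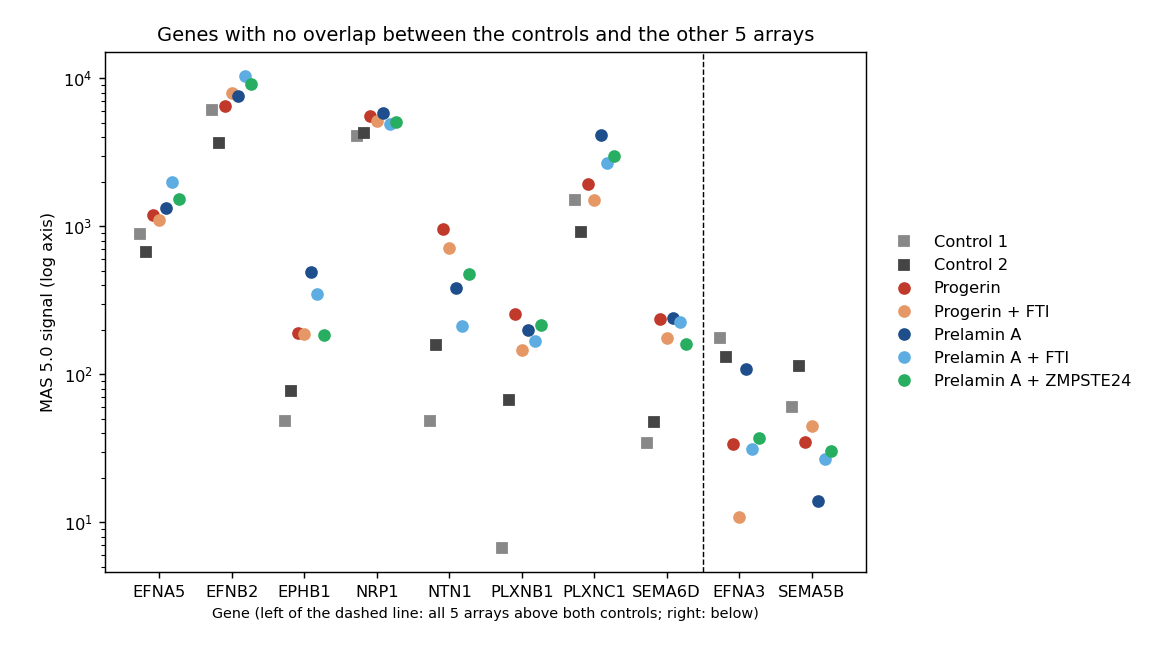
Signal (log axis) on each of the 7 arrays for the 10 genes whose 5 arrays with progerin or prelamin A all lay on 1 side of both controls, with 1 point per array and no error bars because each condition other than control had 1 array. SEMA6D lay between 161 and 240.1 on the 5 arrays and at 34.0 and 47.6 in the controls, while PLXNC1, NRP1 and EFNB2 were separated from the controls by narrow gaps. PLXNC1 was nearly level with control 1 on 1 array, at 1505 with progerin and FTI and 1500 in that control.

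Among the semaphorins, SEMA6D, a transmembrane ligand of class 6 whose known receptor is plexin A1, was called higher with both lamins and did not overlap the controls on any array. It lies at chr15:47184089-47774228. Its signals were 34.0 and 47.6 in the controls, 236 with progerin, 175 with progerin and FTI, 240.1 with prelamin A, 227 with prelamin A and FTI and 161 with prelamin A and ZMPSTE24. The lowest of the 5 stood above both controls by more than 3-fold. The log2 difference from control was 2.16 (SE 0.35, unadjusted p = 0.00236) with progerin and 2.18 (SE 0.35, unadjusted p = 0.00224) with prelamin A. FTI and ZMPSTE24 left it at differences of -0.39 (progerin with FTI), -0.07 (prelamin A with FTI) and -0.53 (prelamin A with ZMPSTE24), none of which was called.

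In a second limma model the arrays were pooled into 3 states, 2 controls, 2 arrays with a lamin alone and 3 arrays with a lamin plus FTI or ZMPSTE24, and calls were made at an adjusted p under 0.05. SEMA6D was the single guidance gene called, at 2.17 (SE 0.23, adjusted p = 0.0224, limma) for the lamin arrays against control and at 1.84 (SE 0.21, adjusted p = 0.0222, limma) for the treated arrays against control. Over all genes 0.558% and 1.08% passed in these comparisons. SEMA6D had passed the signal filter only through the arrays with a lamin, so these calls are not independent of that filter. The call for the lamin arrays was lost when any 1 array was left out other than that of prelamin A with FTI, at differences from 2.00 to 2.34. The call for the treated arrays was lost without either control, or without the array of progerin with FTI, of prelamin A with FTI or of prelamin A with ZMPSTE24, at differences from 1.67 to 2.01. A second SEMA6D probe set gave 1.63 with progerin and 1.15 with prelamin A, and the call was lost in both comparisons when the probe sets were averaged. Between treated and lamin arrays 0 guidance genes and 0.0% of all genes were called by limma. At an unadjusted p under 0.05, 2 guidance genes differed there, SLIT1 at 0.68 and NRP2 at -0.86, beside 1.99% of all genes.

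The class 3 semaphorins SEMA3A and SEMA3C, secreted ligands that bind neuropilins, showed another pattern. In both, the array of prelamin A alone read lowest among the arrays with a lamin. SEMA3C (chr7:80742538-80922389) had signals of 6869 and 4544 in the controls, 7610 with progerin, 8370 with progerin and FTI, 2130 with prelamin A, 2937 with prelamin A and FTI and 6349 with prelamin A and ZMPSTE24. Both arrays of prelamin A without ZMPSTE24 lay below every other array. SEMA3C was called lower with prelamin A than in control, at -1.38 (SE 0.40, unadjusted p = 0.0216), and higher with ZMPSTE24 than without it, at 1.57 (SE 0.46, unadjusted p = 0.023). With FTI the difference was 0.46 and was not called. A second SEMA3C probe set gave -1.70 against control and 1.89 with ZMPSTE24.

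SEMA3A (chr7:83955777-84492725) had signals of 1355 and 375 in the controls, 2390 with progerin, 2686 with progerin and FTI, 431 with prelamin A, 1080 with prelamin A and FTI and 3099 with prelamin A and ZMPSTE24. The prelamin A array lay between the 2 controls, and the 2 progerin arrays and the array with ZMPSTE24 lay above them. The difference with ZMPSTE24 was 2.80 (SE 0.93, unadjusted p = 0.034) and was called, and the other 2 probe sets of the gene gave 2.54 and 3.16. The difference from control was 1.72 with progerin (unadjusted p = 0.0924) and -0.71 with prelamin A (unadjusted p = 0.422), both not called, and the latter was -1.62 against control 1 and 0.19 against control 2.

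Of the remaining semaphorins, SEMA5B was called lower with prelamin A, SEMA6B higher with FTI in prelamin A cells, and the rest in none of the 5 comparisons. SEMA5B, a transmembrane class 5 semaphorin, read 59.9 and 113 in the controls and 34.6, 44.7, 13.9, 26.6 and 30.4 on the other arrays, in the order used above. Its highest signal was close to the filter of 100, and the difference with prelamin A was -1.73 (SE 0.45, unadjusted p = 0.0145). SEMA6B read 46.3 with prelamin A alone and 118 once FTI was added, a difference of 1.10 (SE 0.37, unadjusted p = 0.0346), with controls at 95.7 and 97.8. SEMA4B, another membrane-bound member, read 548 with progerin and 158 with prelamin A around controls of 263 and 347, and was not called against them, at 0.82 (unadjusted p = 0.0739) and -0.88 (unadjusted p = 0.0626). SEMA3F, SEMA4C, SEMA4F, SEMA4G, SEMA5A, SEMA6A and SEMA7A were not called in any of the 5 comparisons.

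Plexins are the transmembrane receptors of semaphorins, and 2 of the 8 tested were called. PLXNB1 (chr3:48403854-48430310), a receptor for SEMA4D, read 6.66 and 66.8 in the controls and 255, 147, 198, 168 and 215 on the other arrays. All 5 lay above control 2 and far above control 1, and the controls themselves differed by 1.87. Its difference was 2.65 (SE 0.83, unadjusted p = 0.0279) with progerin and 2.31 (SE 0.83, unadjusted p = 0.0433) with prelamin A, and relative to control 2 alone it was 1.71 and 1.37. PLXNB1 lost both calls with a pseudocount of 1.

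PLXNC1 (chr12:94148577-94307675), the receptor for SEMA7A, read 1500 and 909 in the controls, 1930 with progerin, 1505 with progerin and FTI, 4158 with prelamin A, 2658 with prelamin A and FTI and 2994 with prelamin A and ZMPSTE24. The 3 prelamin A arrays stood above the rest, and that of progerin with FTI was nearly level with control 1. The difference with prelamin A was 1.82 (SE 0.43, unadjusted p = 0.0106), and 2 further probe sets gave 1.45 and 1.97. SEMA7A, its ligand, read 664 and 451 in the controls and 365 to 550.5 elsewhere. PLXNA1, PLXNA2, PLXNA3, PLXNB2, PLXNB3 and PLXND1 were called in none of the 5 comparisons. Among them PLXNB2, a receptor of class 4 semaphorins, read 2382 and 3907 in the controls and 2959 to 5127 on the other arrays.

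Both neuropilins were tested. NRP1, a co-receptor for SEMA3A and for VEGF, read 4070 and 4259 in the controls and 5575, 5156, 5784, 4947 and 5092 on the other arrays. All 5 were above both controls, with differences of 0.42 (SE 0.32) for progerin and 0.47 (SE 0.32) for prelamin A that were not called. The other NRP1 probe sets gave -0.21 and -0.03 with progerin and 0.17 and -0.21 with prelamin A, and overlapped the controls. NRP2 (chr2:205682501-205798131), which binds SEMA3C and SEMA3F, read 237 and 422 in the controls, 215 with progerin, 168 with progerin and FTI, 373 with prelamin A, 169.9 with prelamin A and FTI and 115 with prelamin A and ZMPSTE24. It was called lower with ZMPSTE24 at -1.57 (SE 0.52, unadjusted p = 0.0346), and not with FTI at -1.07 (SE 0.52, unadjusted p = 0.104). Its 9 probe sets, which share a transcript and are not replicates, were all lower with ZMPSTE24, from -0.84 to -2.51, and all lower with FTI in prelamin A cells, from -0.42 to -2.46. Averaged over those probe sets the difference with ZMPSTE24 was -1.39 and was not called.

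Among the Eph receptors, EPHB1 was higher with both lamins. EPHB1 (chr3:134795260-135260467), a tyrosine kinase that binds B ephrins, read 48.0 and 76.5 in the controls, 190.4 with progerin, 188 with progerin and FTI, 492 with prelamin A, 346 with prelamin A and FTI and 184 with prelamin A and ZMPSTE24. All 5 arrays exceeded both controls by more than 2-fold. The difference was 1.42 (SE 0.39, unadjusted p = 0.0171) with progerin and 2.72 (SE 0.39, unadjusted p = 0.00135, adjusted p = 0.13 in limma) with prelamin A. With ZMPSTE24 it was -1.35 (SE 0.45, unadjusted p = 0.0335), also called, and with FTI -0.02 in progerin and -0.49 in prelamin A cells. The second EPHB1 probe set gave 0.01 with progerin, 1.63 with prelamin A and -1.43 with ZMPSTE24, and averaging the 2 removed the calls with progerin (0.72) and with ZMPSTE24 (-1.39).

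EPHA5, which binds A ephrins, read 57.6 and 23.3 in the controls and 68.0, 49.0, 141, 169 and 75.2 on the other arrays. Its difference with prelamin A was 1.54 (SE 0.49, unadjusted p = 0.0292), and its other probe set gave 1.06. EPHB3 (chr3:184561785-184582408) read 264 and 344 in the controls, 209.8 with progerin and 51.9 with progerin and FTI, and 289.7, 207 and 144 on the prelamin A arrays. It was the 1 guidance gene called with FTI in progerin cells, at -1.73 (SE 0.41, unadjusted p = 0.01), beside a background of 1.45%. Its second probe set gave -0.19 for the same comparison, so that the call rested on 1 of 2 probe sets. EPHA2, EPHA4, EPHA8, EPHB4 and EPHB6 were called in none of the 5 comparisons.

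Of the 5 ephrins, EFNA3 was called and the other 4 were not. EFNA3 (chr1:155078837-155087538), a ligand anchored by a lipid tail, read 175 and 132 in the controls, 34.0 with progerin, 10.8 with progerin and FTI, 108 with prelamin A, 31.5 with prelamin A and FTI and 37.2 with prelamin A and ZMPSTE24. All 5 lay below both controls, and the array with prelamin A alone lay nearest to them. The difference was -1.75 (SE 0.35, unadjusted p = 0.00572) with progerin and -0.44 (unadjusted p = 0.276) with prelamin A. Within prelamin A cells it was called lower with FTI, at -1.38 (SE 0.41, unadjusted p = 0.0228), and with ZMPSTE24, at -1.22 (SE 0.41, unadjusted p = 0.0347), both of which moved it further from the controls.

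EFNB2, a transmembrane ligand known from arteries, read 6094 and 3646 in the controls and 6510, 7901, 7625, 10423 and 9219 on the other arrays. Its differences of 0.46 (SE 0.44) and 0.69 (SE 0.44) with progerin and prelamin A were not called. EFNA5 read 893 and 674 in the controls and 1191 to 1992 elsewhere, at 0.61 (SE 0.36) and 0.76 (SE 0.36), also not called. The other probe sets of both genes gave positive differences as well, from 0.27 to 0.89. EFNA4 and EFNB3 were called in none of the 5 comparisons, and EFNB3 read 134 in control 2 and 16.2 to 30.6 on all other arrays.

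SLIT2 and netrin 4 shared the pattern of a low prelamin A array. SLIT2 (chr4:20251905-20620561), a large secreted ligand of ROBO receptors, read 6448 and 3392 in the controls, 5993 with progerin, 5424 with progerin and FTI, 2930 with prelamin A, 3973 with prelamin A and FTI and 8789 with prelamin A and ZMPSTE24. The array with ZMPSTE24 was the highest and that with prelamin A alone the lowest. The difference between them was 1.58 (SE 0.57, unadjusted p = 0.0443), and the gene's other probe sets gave 1.60 and 1.07. Against control the prelamin A array gave -0.67 (unadjusted p = 0.238), not called. SLIT3 read 2590 and 3720 in the controls and 3460 to 4915 elsewhere, and neither SLIT3 nor SLIT1 was called. The ROBO receptors were also not called, with ROBO1 at 2239 and 2672 in the controls and 1783 to 2509 on the other arrays. ROBO2 read 214 and 21.6 in the controls, 547 with progerin and 739 with progerin and FTI, and its difference of 2.60 with progerin had an SE of 1.11 (unadjusted p = 0.0726).

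NTN4 (chr12:95657807-95791155), a laminin-related protein of basement membranes, read 3747 and 893 in the controls, 2761 with progerin, 3019 with progerin and FTI, 376 with prelamin A, 1819 with prelamin A and FTI and 3210 with prelamin A and ZMPSTE24. Only the array with prelamin A alone lay below both controls. The difference with ZMPSTE24 was 3.04 (SE 1.03, unadjusted p = 0.0367) and was called. That of prelamin A from control was -2.24 (SE 0.90, unadjusted p = 0.0599), more than 2-fold yet not called, and the controls themselves differed by -2.05, control 2 being the lower. FTI gave 2.23 in prelamin A cells (SE 1.03, unadjusted p = 0.0899).

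NTN1 (chr17:9003087-9244000), the founding secreted netrin, read 48.6 and 159 in the controls, 964 with progerin, 713 with progerin and FTI, 383 with prelamin A, 212 with prelamin A and FTI and 477 with prelamin A and ZMPSTE24. All 5 exceeded both controls, and the 2 progerin arrays were the highest. Its difference was 3.21 (SE 0.67, unadjusted p = 0.00643) with progerin and 1.91 (SE 0.67, unadjusted p = 0.040) with prelamin A. Relative to control 1 these were 3.92 and 2.63, and relative to control 2 they were 2.49 and 1.19. UNC5B, the 1 netrin receptor of its family tested here, read 178 and 248 in the controls and 156 to 258 elsewhere and was not called. Its other probe set read 99.7 and 157 in the controls and 312 with prelamin A. That probe set gave 1.21 with prelamin A, -0.76 with FTI in prelamin A cells and -1.19 with ZMPSTE24.

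Treatment was addressed by 3 comparisons within the lamin lines, which ask whether FTI or ZMPSTE24 moves expression away from the level with the lamin alone. With FTI, 1 guidance gene was called in progerin cells (EPHB3) and 2 in prelamin A cells (EFNA3 lower, SEMA6B higher), and 2.81% of all genes were called in the latter. On the array labelled prelamin A and ZMPSTE24, compared with prelamin A alone, 7 were called, or 15.2% of the 46 against 5.04% of all genes, 4 of them higher (NTN4, SEMA3A, SLIT2 and SEMA3C; background 2.18%) and 3 lower (NRP2, EPHB1 and EFNA3; background 2.85%). The smallest adjusted p among the guidance genes in that comparison was 0.859 in limma, and a pseudocount of 1 reduced the 7 calls to 3. The median log2 difference over the 46 genes with ZMPSTE24 was 0.15, beside -0.02 over all genes. Of these 7 genes, 3 (SEMA3C, EPHB1 and NTN4) lay nearer the control mean with ZMPSTE24 than with prelamin A alone, and 4 (SEMA3A, SLIT2, NRP2 and EFNA3) lay further from it, SEMA3A going from -0.71 to 2.09. The array of prelamin A alone enters the comparisons of prelamin A with control, with FTI and with ZMPSTE24, so a value particular to it enters each of them.

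**Figure D3:**
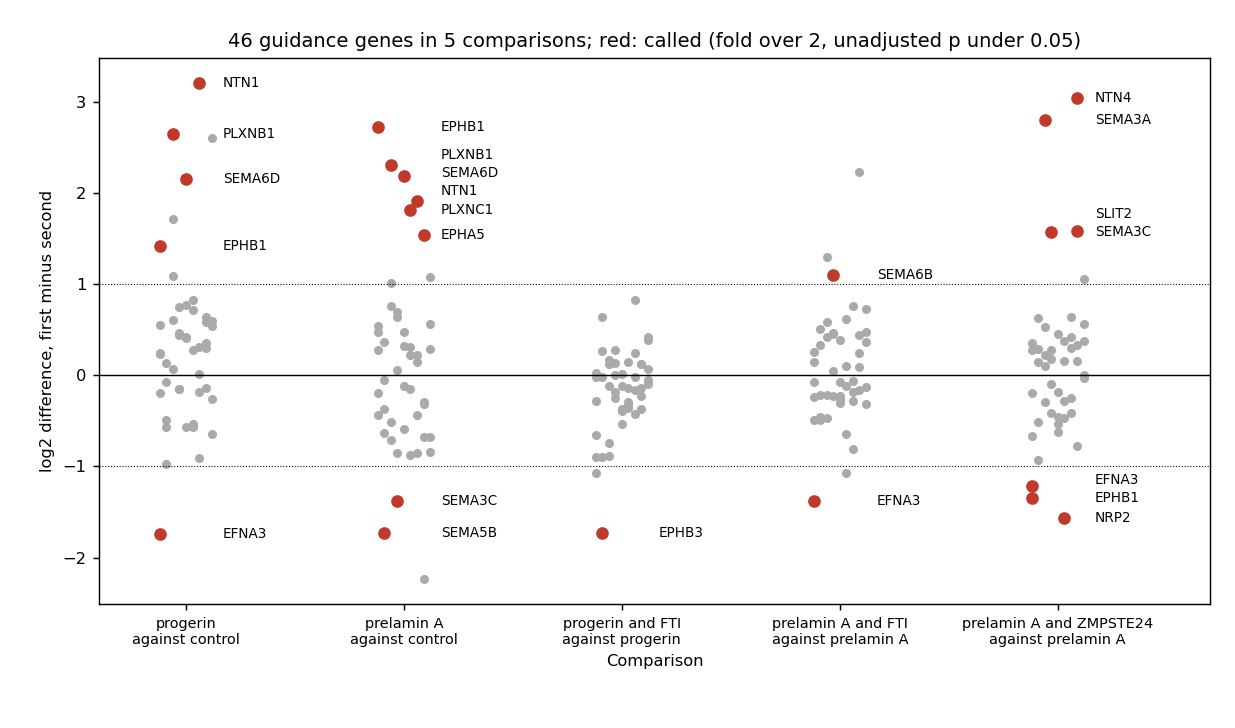
Log2 difference of each of the 46 guidance genes in the 5 comparisons, with 1 point per gene and red points for the genes called at a fold over 2 and an unadjusted p under 0.05. The 5 called with progerin, 8 with prelamin A and 7 with ZMPSTE24 stand out from a majority near 0, and the comparisons with FTI hold 1 and 2.

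The 2 lamins were compared directly on their own arrays. At a fold over 2 and an unadjusted p under 0.05 (background 7.05%, of which 3.59% higher and 3.46% lower with prelamin A), 5 guidance genes differed: NTN4 at -2.83, SEMA3C at -1.83 and SEMA4B at -1.70 were lower with prelamin A, and EFNA3 at 1.31 and EPHB1 at 1.30 were higher. By limma 0 had an adjusted p under 0.05, with 0.618 the smallest. The difference of the FTI effect between the lines reached an unadjusted p under 0.05 for 0 of the 46 genes, and for 1.84% of all genes together with a fold over 2.

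Many guidance genes have several probe sets, and 26 of the 46 had more than 1 that passed the filter. Probe sets of SEMA3A, SEMA3C, SLIT2 and NRP2 differed in the same direction with ZMPSTE24, while those of EPHB1 and EPHB3 diverged in progerin cells. Probe sets also diverged in genes that were not called, so the lack of a call holds for the probe set tested. With prelamin A, EPHA4 gave 0.15 on the probe set tested and 1.58 and 1.08 on the others, and PLXNA1 gave -0.85 beside 0.07 and -2.31. SEMA4C gave 0.64 with ZMPSTE24 on the probe set tested and -2.46 on the other. NTN4, NTN1, PLXNB1 and EFNA3 had 1 probe set that passed.

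**Figure D4:**
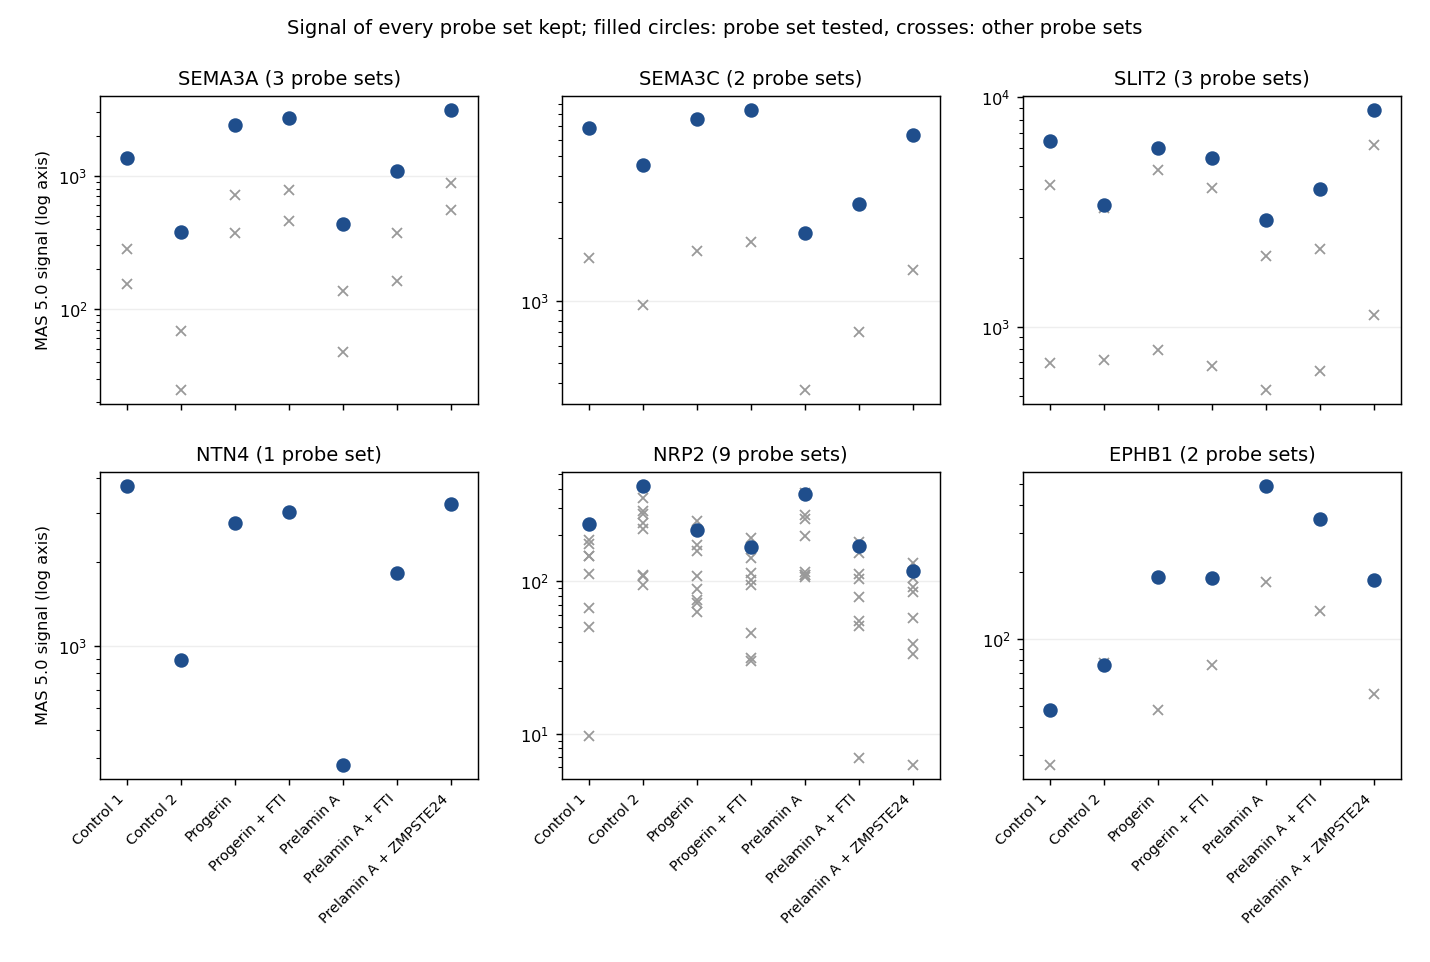
Signal (log axis) of every probe set kept of SEMA3A, SEMA3C, SLIT2, NTN4, NRP2 and EPHB1 on the 7 arrays, with filled circles for the probe set tested and crosses for the others. All probe sets of SEMA3A, SEMA3C and SLIT2 are lower with prelamin A alone than with progerin or with ZMPSTE24 added, though those of SEMA3A stay above control 2. The 9 probe sets of NRP2 are lower with ZMPSTE24 than with prelamin A alone, and those of EPHB1 part at progerin.

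Genes that work with the guidance receptors were taken from 3 lists. Of 23 co-receptors 12 were tested, and 1 was called higher and 1 lower with progerin, and 3 higher and 0 lower with prelamin A. Over all genes 5.8% were called with progerin and 10.3% with prelamin A, and the shares of the lists were not tested against these. FLT1, a VEGF receptor, read 94.8 and 143 in the controls and 19.5 with progerin, a difference of -1.90 (SE 0.38). NEO1 encodes neogenin, a netrin receptor, and read 710.3 and 1022 in the controls and 2119 with prelamin A, at 1.30 (SE 0.38). MET, a receptor kinase that associates with plexin B1, was higher with prelamin A at 1.19 (SE 0.44), and CD72, a receptor for SEMA4D, was higher in both lines, at 1.13 and 1.11 (SE 0.42 each). The list's medians were 0.22 and 0.10.

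Among 29 other guidance ligands and their receptors 16 were tested, of which 0 were called with progerin (medians of 0.05 with progerin and 0.01 with prelamin A), and 2 higher and 3 lower with prelamin A. The shares of all genes called were again 5.8% and 10.3%. SLITRK5, a neuronal membrane protein, read 6.48 and 4.07 in the controls and 107 with prelamin A, at 2.54 (SE 0.33). WNT5A, a secreted Wnt ligand, read 9764 and 12554 in the controls and 3108 with prelamin A, at -1.83. VEGFA, which also binds NRP1, read 13113 and 11881 in the controls and 4755 with prelamin A, at -1.39. VEGFB stood at -1.12 in the same comparison.

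Of 69 guidance effectors 60 were tested, and 2 were called higher and 1 lower with progerin, and 5 higher and 6 lower with prelamin A, with medians of 0.06 and -0.11. Beside these counts stand 5.8% of all genes called with progerin and 10.3% with prelamin A. RAC2, a small GTPase best known from blood cells, read 110 and 168 in the controls but 1406 in progerin and 1347 in prelamin A cells, at 3.22 and 3.16 (SE 0.39 each). It stayed between 1096 and 1478 on the 3 treated arrays. FES, a tyrosine kinase that acts downstream of plexins, was lower with prelamin A at -2.20 (SE 0.42). It was dim, at 80.3 and 136 in the controls, 10.3 with prelamin A, 112 with FTI added and 9.36 with ZMPSTE24 added. KALRN, an exchange factor for small GTPases, was higher with prelamin A at 2.08 (SE 0.34), and LIMK2, a kinase of the actin regulator cofilin, was higher at 1.61 (SE 0.34).

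Markers of other cell types were read on the same arrays, where 5.8% of all genes were called with progerin and 10.3% with prelamin A. Of 7 neuron markers 5 were tested, and the summed signal of all 7 was 13521 and 17903 in the controls and 34018 to 40633 on the other arrays. STMN2 read 279.7 and 1668 in the controls and 16447 to 29845 on the other 5, while RBFOX3 and ELAVL4 stayed under 100. STMN2 was called higher with both lamins, SNAP25 and SYT1 with prelamin A, and TUBB3 and GAP43 with neither. TUBB3 read 12608 and 15589 in the controls and 9251 to 17396 elsewhere. GAP43 read 427 and 530 in the controls and 168 to 429 elsewhere. Of 7 endothelial markers 2 were tested. TEK was called higher with progerin and with prelamin A (3.49 and 2.77) and PECAM1 with neither, while CDH5 read 4.61 to 35.7. Of 4 genes expressed in the packaging cells used to make the virus, INA and NEFL were called higher with both lamins and NEFM with prelamin A. LIN28B was not tested, and read 32.5 and 19.4 in the controls and 2.78 to 27.7 elsewhere. The summed signal of the 4 was 75.2 to 105 in the controls and 456 to 893 elsewhere. One Schwann cell marker, ERBB3, and 1 keratinocyte marker, KRT10, passed the filter and were not called against control, KRT5 and KRT14 were near background, and 0 melanocyte markers passed. The part of these cell types in the results for the guidance genes was not tested. The 3′ to 5′ ratio of β-actin, a measure of RNA integrity, was 1.06 to 1.26 on all arrays but those of prelamin A (1.62) and prelamin A with ZMPSTE24 (1.5). The same ratio of GAPDH was 0.861 and 0.892 on those 2 arrays and 0.879 to 0.943 on the others. The part of RNA integrity was not tested.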

How the data were processed

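Fibroblast RNA was hybridised to 7 Affymetrix Human Genome U133 Plus 2.0 arrays, and whether the 2 controls were separate cultures is not stated. The deposited values are signal intensities per probe set made by the authors with MAS 5.0 on a linear scale, each array having been scaled to a common target value. The platform annotation tied 41091 of the 54675 probe sets to a single gene, and 41037 of these were found by gene ID in RefSeq (GRCh38.p14). Probe sets that reached 100 on any array were retained, and each gene was represented by the probe set of highest mean signal (12726 genes). Values were log2(signal + 16). The first model in limma (limma 3.58.1, R 4.3.3) fitted 6 conditions, leaving 1 residual degree of freedom that the 2 controls supply, moderated by 3.50 prior degrees of freedom. Its calls at a fold over 2 and an unadjusted p under 0.05 follow thresholds the study states, and Benjamini-Hochberg adjustment ran over all genes. The second model had 3 states and 4 residual degrees of freedom. The p-values reflect no more than the spread between arrays, which may be technical, and the number of arrays limits their precision. The members and lists were chosen with earlier results of these data known. Full values are given for genes called in a comparison, those separated from the controls and those of highest mean signal, and for the 4 largest called changes of each further list. The methods' scan of all genes for reversion was not repeated. Scripts were tested on simulated data.

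Alternatives changed the pseudocount (1 or 64), the normalization (quantile or median centring), the filter, the choice of probe set, the variance trend, the cell line as a block, the threshold and the arrays included. Promoter windows came from the RefSeq promoter table, and 6 motifs were searched on both strands.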

Additional observations from a re-analysis of the deposited data

How the results depend on the processing

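For the genes called, no direction turned under the alternatives run, while uncalled differences could turn, as that of SEMA3A with prelamin A did between the controls (-1.62 and 0.19). Of the tested pairs of a called gene and a setting, 170 kept their side of the threshold and 40 did not. Another 26, which left out a control, had no test and kept their direction. Among the counts 84 stayed within 1.5 times and 41 moved beyond it. An unadjusted p under 0.01 left 3 guidance genes called with progerin, 2 with prelamin A and 0 in each of the comparisons with FTI and ZMPSTE24, and an adjusted p under 0.05 left 0 in all 5. With FTI in progerin cells the count of 1 became 3 with a pseudocount of 1, 4 with no filter on dim probe sets, 2 with a filter on the mean signal (100) and 0 with the mean over all probe sets of a gene. With FTI in prelamin A cells the count of 2 became 0 with a pseudocount of 64, 0 with that filter and 1 with the intensity trend. With ZMPSTE24 the count of 7 became 3 with a pseudocount of 1. In the model of 3 states, the count of 1 for the lamin arrays against control became 0 with the mean over all probe sets, 6 at an unadjusted p under 0.05 with a fold over 2, and 0 to 1 with 1 array left out. For the treated arrays against control it became 0 with the mean over all probe sets, 2 with the cell line as a block (SEMA6D and EFNA3), 9 at the unadjusted threshold and 0 to 2 with 1 array left out, the 2 being EFNB3 and EPHA8 without control 1. The direct difference between the lamins had 5 genes at an unadjusted p in place of 0. The following were chosen after seeing the data: leaving out a control gave 11 to 14 genes over 2-fold with progerin and 14 to 16 with prelamin A, with no test, and moved the count of separated genes from 10 to between 20 and 26.

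Among the calls lost were those of PLXNB1 in both lines, NTN1 with prelamin A, and NTN4, SEMA3A, SLIT2 and EPHB1 with ZMPSTE24 at a pseudocount of 1, those of SEMA5B and EPHA5 with prelamin A and EFNA3 within prelamin A cells at a pseudocount of 64, and those of EPHB1 with progerin and EPHB3 with FTI when probe sets were averaged. The cause of these changes was not tested. No paired analysis was possible because only the controls had 2 replicates, so replicate numbers pair no arrays. The cell line could be used as a block in the model of 3 states, as above, and left 1 call for the lamin arrays against control and 0 for the treated against the lamin arrays. Leaving out a control leaves the model of 6 conditions no residual degree of freedom, so it gives no calls there. Genes under a signal of 100, such as SEMA5B or EFNA3 on most arrays, are limited by the array's background.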
